A study of Mus musculus with 16 samples.

Results

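The genes described here are the 7 members of the iron-responsive system that cells use to set iron storage and uptake: Fth1, Ftl1, Slc40a1, Tfrc, Slc11a2, Aco1 and Ireb2. They were chosen by gene name from the 30214 gene names on the array, without the use of measured values, and all 7 passed the filter on dim probes. The data came from AML12 cells, a non-tumourigenic line of mouse hepatocytes, in which doxycycline had induced a scramble or an eIF6 shRNA for 48 h. eIF6 is a translation factor that keeps the large ribosomal subunit from joining the small one too early. The sample labels name only an shRNA, and its target comes from the study's methods. All 4 groups received doxycycline and then insulin for 1 h, at 100 nM in one label and at 100 mM in another. The study's growth medium for AML12 cells held serum, dexamethasone and a supplement of insulin, transferrin and selenium. The methods do not say whether this medium was kept up to the insulin treatment, so they do not give the transferrin supply of these samples. Cell extracts were separated on sucrose gradients. Subpolysomal RNA (pooled fractions 1 to 6) and polysomal RNA (pooled fractions 7 to 10) of scramble and of eIF6 shRNA cells made the 4 groups, with 4 one-colour arrays each. The methods call the samples biological quadruplicates and no label says that they were separate cultures, so p-values measure the spread between these samples.

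Iron regulatory proteins bind a short hairpin, the iron-responsive element, when iron is scarce. In the 5′ UTR of Fth1, Ftl1 and Slc40a1 mRNA this blocks the start of translation, whereas in the 3′ UTR of Tfrc mRNA it protects the mRNA from decay. One form of Slc11a2 mRNA also has an element in its 3′ UTR. Aco1 (IRP1) is a cytosolic aconitase when it holds an iron-sulfur cluster and an RNA-binding protein when it does not, and Ireb2 (IRP2) is removed by the proteasome when iron is plentiful. Ferritin mRNA outside polysomes is a textbook case of translational control.

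The 7 genes were read by 11 probes of 60 bases. The sequences below belong to the probes on which the results turn, since probes of a gene disagreed in Ftl1, Slc11a2 and Tfrc. Coordinates are those of the files, in mm9, and letters run 5′ to 3′ along the mRNA. Capitals mark AATAAA, the signal for polyadenylation, searched on the strand of the mRNA in the last 30 bases of each probe, which 12% of the 25259 probes in use held. The first pair shows Ftl1, minus strand. The probe at base 462 of the transcript lies in the coding sequence and crosses an intron (chr7:52714014-52714495), and the probe at base 915 lies at the transcript's end (last 30 bases, chr7:52713309-52713338) and is also listed for predicted transcripts.
Ftl1, base 462: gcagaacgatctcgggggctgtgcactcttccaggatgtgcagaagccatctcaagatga
Ftl1, base 915: aaaAATAAAgctttttgagacagcaaaaaa
The second pair shows Slc11a2, minus strand. The probe at base 253 (chr15:100240516-100240575) lies in the coding sequence of both listed RefSeq transcripts, and the probe at base 2961 (last 30 bases, chr15:100218333-100218362) is listed for only 1 of them.
Slc11a2, base 253: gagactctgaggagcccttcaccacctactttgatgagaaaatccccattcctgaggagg
Slc11a2, base 2961: ttgttatAATAAAgttcatgcttaatagct
The last 3 are the probe of Slc40a1 (minus strand, chr1:45965255-45965284), the probe of Fth1 (plus strand, chr19:10059515-10059544) and the Tfrc probe that was printed on 10 spots of each array (plus strand, chr16:32632285-32632314), each by its last 30 bases.
Slc40a1, base 2980: cctttcaatatccctgagaagAATAAAgaa
Fth1, base 825: ttgcaccaaaacatctgcttaagttcttta
Tfrc, base 4288: aaccatcattacgcatctaatcagttttgc

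Values are log2 intensities after quantile normalization over the 16 arrays, so 1 unit is a doubling. Each array received RNA of 1 fraction and was brought to the same distribution, so a polysomal value below a subpolysomal one says that the mRNA took a smaller place among polysomal than among subpolysomal RNA. It is not a share of the molecules of that mRNA. The study reported a smaller polysome area in eIF6 shRNA cells and added a correction for it. It reported for selected targets that mRNAs with a relative rise had similar absolute levels. No such correction was made here, so a rise or fall between the shRNAs is relative to other mRNAs and is not an amount. The 16 arrays lay on 4 slides, each with 1 array of every group, and 20175 to 24950 of 39429 probes per array were well above background, with no saturated spot. Eif6 itself fell on polysomes by 1.05 (adjusted p = 1.45e-07, limma) and was at 11.60 ± 0.0648 and 11.61 ± 0.140 in scramble and eIF6 shRNA subpolysomes (mean ± SD, n = 4). Of 10 hepatocyte markers 7 were above background on all 16 arrays, among them Trf, Hnf4a, Krt8 and Krt18. Alb was above background on 0 and 3 of 4 scramble arrays (subpolysomal, then polysomal) and on 2 and 2 of 4 eIF6 shRNA arrays, and Fgb on none. Some markers of several cell types moved with the shRNA, and others of the same lists did not. Of hepatocyte genes Ttr and Afp rose on polysomes by 1.15 and 1.26 (adjusted p = 5.52e-07 and 2.58e-06), while the ranges of the summed signal of the hepatocyte list overlapped. The other tested hepatocyte markers were not called on polysomes, among them Trf (−0.25), Hnf4a (−0.25), Serpina1a (−0.21), Krt8 (0.62) and Krt18 (0.15). The summed polysomal log2 signal of the 5 tested of 8 macrophage markers spanned 8.24 to 8.45 in scramble and 7.66 to 7.86 in eIF6 shRNA cells, and in subpolysomes 9.39 to 9.65 and 9.05 to 9.35. Of these Csf1r differed on polysomes by −1.67 (adjusted p = 2.64e-07). Ptprc (−0.68), Cd68 (0.12), Emr1 (0.06) and Marco (0.03) were not called there. The summed signal of the 2 tested of 4 erythroid markers spanned 7.33 to 7.63 and 6.31 to 6.85 on polysomes and 7.34 to 7.60 and 6.70 to 7.06 in subpolysomes. Epor was called in both fractions (−1.02 on polysomes and −0.74 in subpolysomes), and Hba-a1 in neither (−0.04 and 0.22). Of stellate cell and fibroblast markers 4 of 6 were above background on all arrays, and the summed signal of the 5 tested spanned 17.17 to 17.90 in scramble and 14.05 to 14.59 in eIF6 shRNA polysomes, and 16.75 to 16.86 and 15.31 to 15.77 in subpolysomes. Their part in the results below was not tested. In such bulk RNA, fewer cells of a type and less RNA per cell cannot be told apart.

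Ferritin mRNAs lay lower among polysomal than among subpolysomal RNA in both kinds of cells. Fth1 encodes the heavy subunit of ferritin, which oxidises iron, and Ftl1 the light subunit, which helps to form the iron core. In scramble cells Fth1 read 18.08, 17.99, 18.08 and 18.06 on the subpolysomal and 17.42, 17.42, 17.48 and 17.37 on the polysomal arrays. The groups did not overlap, and the difference of −0.63 ± 0.06 (log2, SE; adjusted p = 4.87e-07) was a 1.55-fold lower polysomal signal. In eIF6 shRNA cells Fth1 read 17.89, 17.94, 17.91 and 17.94 and then 17.70, 17.65, 17.74 and 17.62, a smaller difference of −0.24 ± 0.06 (adjusted p = 0.00318). The 4 eIF6 shRNA arrays thus lay between the scramble groups in both fractions. With each fraction normalised on its own the difference in eIF6 shRNA cells was −0.0039 (adjusted p = 0.953), where the median of all genes was 1.414.

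Ftl1 read 17.98, 17.94, 17.97 and 17.92 in scramble subpolysomes and 16.91, 16.93, 16.81 and 16.97 in scramble polysomes. The polysomal signal was 2.06-fold lower (−1.04 ± 0.07, adjusted p = 6.27e-09). With the eIF6 shRNA the values were 17.80, 17.69, 17.76 and 17.75 against 17.01, 17.13, 16.99 and 17.12, a 1.61-fold lower signal (−0.69 ± 0.07, adjusted p = 4.54e-07). These are among the brightest mRNAs of the array: the ferritin probes ranked 91 to 742 from the top of 25259 on all arrays. Before normalization the Fth1 signal of scramble cells spanned 236700 to 268300 in subpolysomes and 181700 to 251500 on polysomes, and these ranges overlapped. How far signals this bright still follow the amount of RNA was not tested.

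The 2 probes of Ftl1 differed in size of this gap. The coding probe gave −1.76 ± 0.09 in scramble and −1.33 ± 0.09 in eIF6 shRNA cells (adjusted p = 7.19e-10 and 1.57e-08 over all probes, of which 27.7% and 27.3% were called lower). The probe at the transcript's end gave −0.32 ± 0.06 (adjusted p = 0.000591) and −0.05 ± 0.06 (adjusted p = 0.549). The fall of Ftl1 was therefore carried mostly by 1 probe, and in eIF6 shRNA cells it was called by that probe alone. That the second probe is also listed for predicted transcripts is a fact of the annotation, and its part in the gap was not tested. The only probe of Fth1 is likewise listed for a noncoding RefSeq transcript as well. The part of that transcript in the Fth1 values was not tested.

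Slc40a1 (ferroportin), the only known exporter of iron from cells, was also lower on polysomes, with the largest gap of the 7 genes under quantile normalization of all arrays. Scaled to the 75th percentile it was −1.24, a smaller gap than those of Ftl1 (−2.14) and Fth1 (−1.86). Its subpolysomal values were 12.12, 11.99, 11.96 and 11.54 in scramble cells, and its polysomal values 10.44, 10.50, 10.27 and 10.76. The groups did not overlap and the polysomal signal was 2.66-fold lower (−1.41 ± 0.15, adjusted p = 1.17e-06). In eIF6 shRNA cells 11.75, 11.62, 11.71 and 11.83 stood against 10.30, 10.70, 10.59 and 10.94, which was 2.13-fold lower (−1.09 ± 0.15, adjusted p = 1.62e-05). In scramble cells 6.71% of all genes lay further down, and 14.1% when scaled to the 75th percentile or the median and 15.1% with each fraction on its own.

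Among the genes of uptake, Tfrc (transferrin receptor) was less bright and its probes disagreed. As a mean of 3 probes it read 6.82, 6.98, 6.90 and 7.04 in scramble subpolysomes and 6.23, 6.37, 6.48 and 6.69 in scramble polysomes, −0.49 ± 0.19 (adjusted p = 0.0387). In eIF6 shRNA cells 6.70, 6.37, 6.48 and 7.22 overlapped with 5.83, 5.74, 6.37 and 6.47, and the difference was −0.59 ± 0.19 (adjusted p = 0.0164). Both calls were lost with no filter on dim probes (−0.48 and −0.52, adjusted p = 0.0732 and 0.0509), the scramble call without any 1 scramble replicate (−0.54 to −0.45, adjusted p up to 0.129), and the other without eIF6 shRNA replicate 1 (−0.49, adjusted p = 0.0856). The probe with 10 spots gave −1.16 ± 0.14 and −1.31 ± 0.14 (adjusted p = 6.97e-06 and 2.16e-06), whereas the probe at base 1732, which was above background on only 2 and 4 of 4 scramble and 1 and 3 of 4 eIF6 shRNA arrays, gave 0.03 ± 0.40 and 0.00 ± 0.40.

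Slc11a2 (DMT1), which carries ferrous iron across the membrane, read 7.29, 7.14, 7.32 and 7.63 in scramble subpolysomes and 6.63, 6.68, 6.98 and 6.61 in scramble polysomes. The groups did not overlap (−0.62 ± 0.12, adjusted p = 0.000472). In eIF6 shRNA cells the gap was −0.37 ± 0.12 (adjusted p = 0.0182), and the call was lost under normexp background correction (−0.15, adjusted p = 0.0915) and without eIF6 shRNA replicate 2 or 3 (−0.32 and −0.34, adjusted p = 0.0906 and 0.0716). The probe common to both transcripts carried it, with −0.96 ± 0.15 and −0.76 ± 0.15 (adjusted p = 6.22e-05 and 0.000459), while the 3′ probe gave −0.29 ± 0.13 and 0.03 ± 0.13 (adjusted p = 0.0663 and 0.839).

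The mRNAs of the iron regulatory proteins were not called lower on polysomes, except Ireb2 in scramble cells when the arrays were scaled to the 75th percentile (−0.34, adjusted p = 0.0442). Ireb2 had 6.34 ± 0.198 and 6.34 ± 0.229 in scramble polysomes and subpolysomes, and a difference of 0.20 ± 0.13 (adjusted p = 0.195) in eIF6 shRNA cells. Aco1 differed by 0.33 ± 0.24 in scramble cells (adjusted p = 0.256) and was higher on polysomes in eIF6 shRNA cells, 5.24, 5.35, 5.73 and 6.25 against 5.27, 4.43, 5.02 and 4.89, with overlap (0.74 ± 0.24, adjusted p = 0.0152). This call was lost under 75th percentile and median scaling (0.13 and 0.22) and without eIF6 shRNA replicate 4 (0.53, adjusted p = 0.0862). In all, 5 of 7 genes were lower on polysomes in scramble cells, where 28.4% of all 19364 genes tested were, and none was higher (background 31.7%). In eIF6 shRNA cells 5 of 7 were lower (background 28.7%) and 1 was higher (background 32.1%). The 5 in scramble cells became 4 without any 1 scramble replicate (25% to 27.6% of all genes), with no filter (27.2%) or by the brightest probe (29.2%). They became 6 under 75th percentile scaling (37.7% of all genes) and 2 with each fraction on its own (4.64%). The median of the 7 was −0.62 and −0.37, beside 0.035 and 0.034 over all genes.

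**Figure D1:**
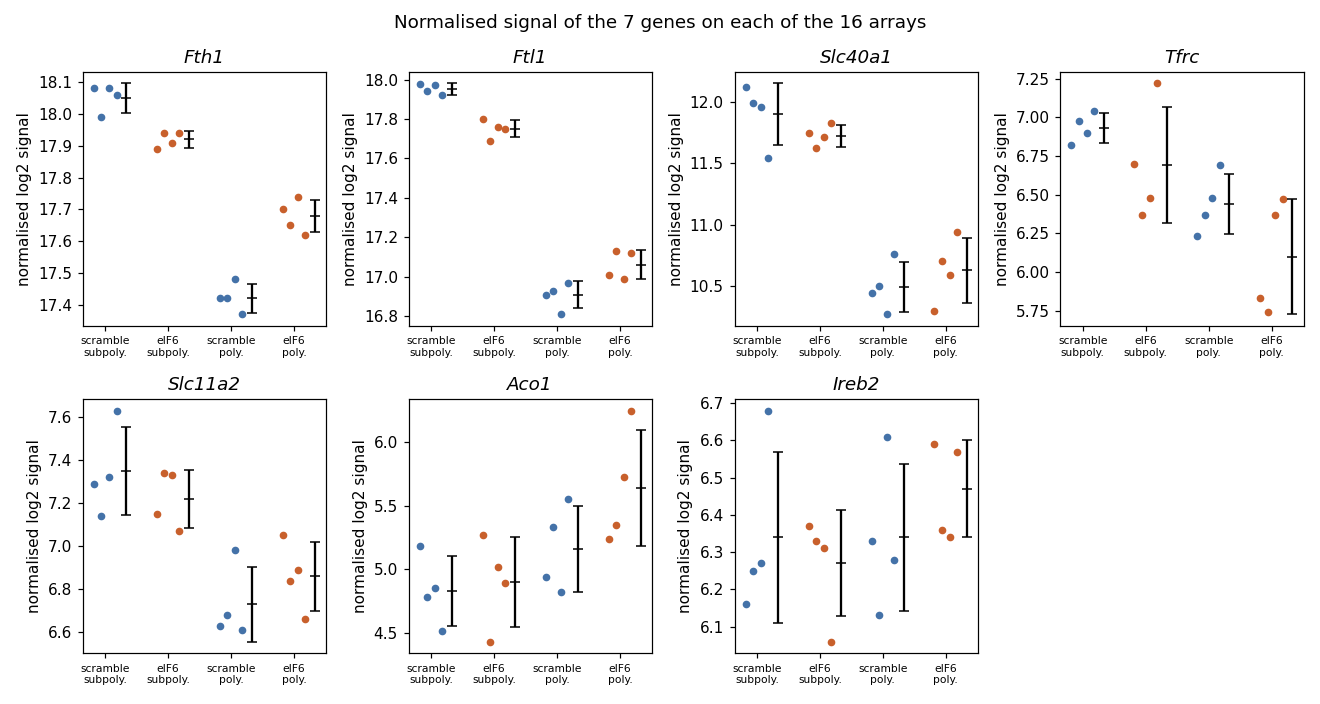
Normalised log2 signal of each gene on the 16 arrays, with 1 panel and 1 scale per gene; points are arrays in the order of replicates 1 to 4, bars are the mean ± SD of 4. Fth1 and Ftl1 of eIF6 shRNA cells lie between the subpolysomal and polysomal values of scramble cells, and the other genes overlap between shRNAs.

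**Figure D2:**
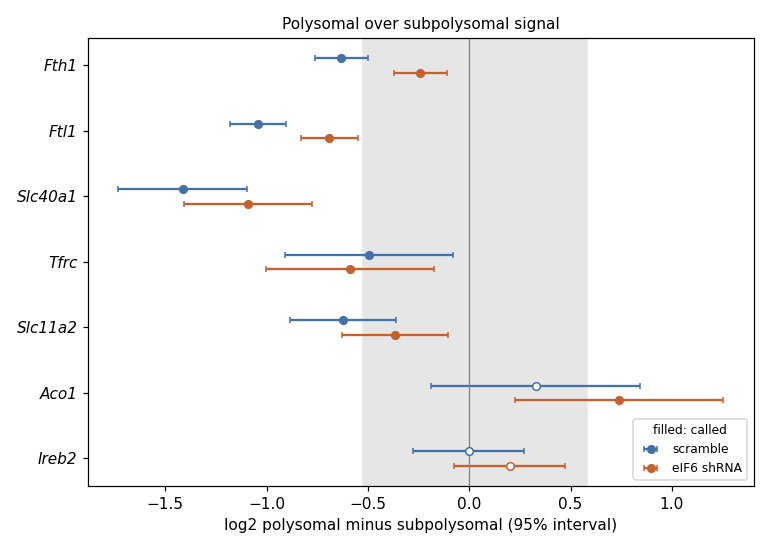
Difference of polysomal and subpolysomal log2 signal for each gene in scramble and eIF6 shRNA cells, with 95% intervals of the limma fit; filled points passed the adjusted p threshold of 0.05, and the grey band spans the middle 50% of all genes in scramble cells. Fth1, Ftl1, Slc40a1, Tfrc and Slc11a2 lie below 0 in both.

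**Figure D3:**
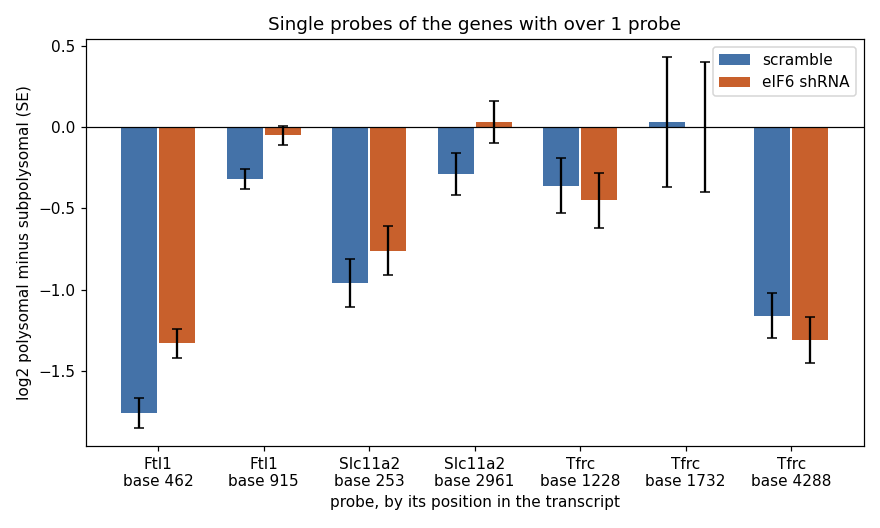
Difference of polysomal and subpolysomal log2 signal for single probes of the 3 genes with more than 1 probe, by position in the transcript; bars are fitted differences and error bars SE. The probe at base 462 of Ftl1, that at base 253 of Slc11a2 and that at base 4288 of Tfrc show the largest gaps of their genes.

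The gap depends on how fractions are scaled. On the scanner's own scale the 75th percentile of log2 signal was 10.02 in scramble subpolysomes and 11.79 in polysomes, while the 99th percentile was 17.19 and 17.74, so bright and middling probes differed between the fractions by unequal amounts. Scaled to the 75th percentile, Fth1 was at −1.86 and Ftl1 at −2.14 in scramble cells. With each fraction normalised on its own, the median of all genes moved to 1.384, so that Tfrc, Slc11a2 and Slc40a1 turned to 0.80, 0.75 and 0.36. Taken relative to the median of all genes, Fth1, Ftl1, Slc40a1, Tfrc and Slc11a2 were below it under all 7 scalings tried, in the range −2.03 to −0.33 in scramble and −1.82 to −0.16 in eIF6 shRNA cells.

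**Figure D4:**
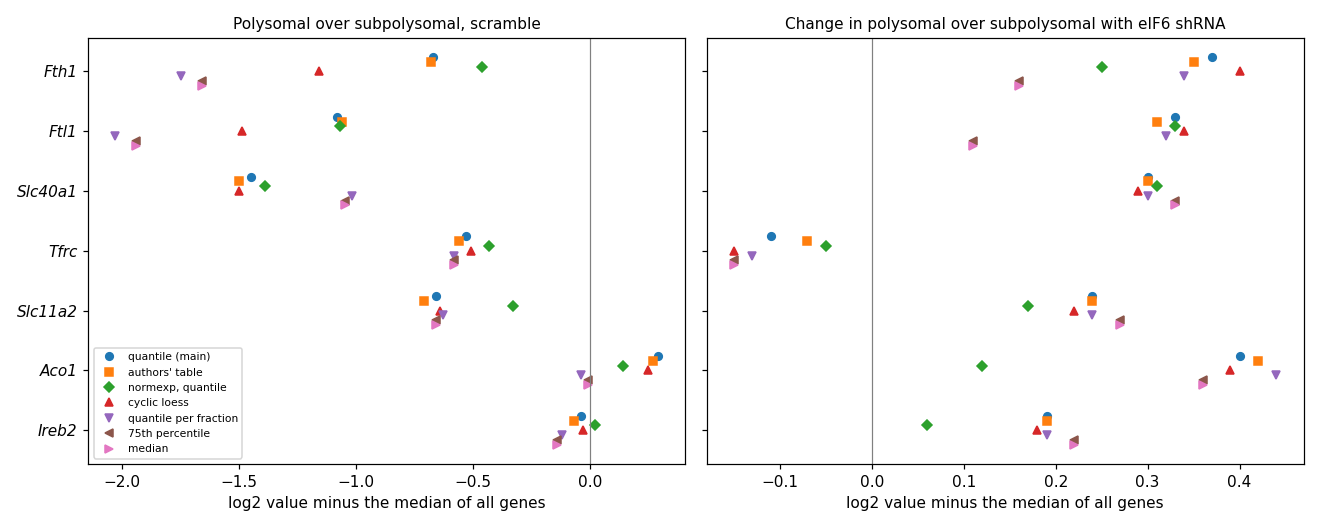
Values of each gene minus the median of all genes under 7 ways of scaling the arrays, for the polysomal over subpolysomal difference in scramble cells (left) and its change with the eIF6 shRNA (right); both axes are log2. On the left 5 genes are below 0 throughout, and on the right Fth1 and Ftl1 drop to 0.16 and 0.11 when the arrays are scaled without a quantile or loess step.

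Between the shRNAs, Fth1 was called higher among polysomal RNA and Ftl1 lower among subpolysomal RNA, and neither was called in both fractions. Relative to other mRNAs, Fth1 rose on polysomes by 0.26 ± 0.06 (1.19-fold, adjusted p = 0.00649). Within each slide it rose by 0.21 to 0.31. These values do not show that the amount of Fth1 mRNA on polysomes rose. Among all genes 11.1% were called higher and 10.7% lower in this comparison. In subpolysomes Fth1 differed by −0.13 ± 0.06 (adjusted p = 0.127), and Ftl1 fell by 0.20 on the log2 scale (SE 0.07, adjusted p = 0.0385), where 12.3% of genes were called lower and 11.8% higher. The call of Ftl1 held in only 1 of 8 fits that left out a replicate (adjusted p up to 0.124), was lost by the brightest probe (−0.17, adjusted p = 0.0567) and with the replicate block (adjusted p = 0.0615), and neither probe was called alone (adjusted p = 0.0668 and 0.0886). Its direction turned under 75th percentile and median scaling (0.062 and 0.092, not called). Ftl1 on polysomes differed by 0.15 ± 0.07 (adjusted p = 0.122). Its probes at base 915 and base 462 were not called there (adjusted p = 0.347 and 0.131). By the probe at base 915 the groups overlapped, with 17.70 to 17.84 in scramble and 17.82 to 17.99 in eIF6 shRNA cells.

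Translational efficiency is here the polysomal change minus the subpolysomal change, both relative to other mRNAs. It rose for Fth1 by 0.39 ± 0.09 (1.31-fold, adjusted p = 0.0364), with 0.30 to 0.46 within slides. It was 0.35 ± 0.09 for Ftl1 (adjusted p = 0.0827), with 0.29 to 0.42 within slides. Of the 7 genes 1 was called higher, beside 0.403% of all genes, and none lower (background 1.11%). The call of Fth1 was lost when any 1 of 7 of the 8 replicates was left out (0.37 to 0.42 over the 8, adjusted p up to 0.164), and when the arrays were scaled to the 75th percentile (0.13, adjusted p = 0.849) or to the median (0.11, adjusted p = 0.877). Under those 2 scalings the subpolysomal differences of Fth1 and Ftl1 also turned positive, and the polysomal call of Fth1 was lost (adjusted p = 0.161 and 0.133) at 0.26 and 0.27.

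No other gene of the 7 was called between the shRNAs. Slc40a1 (0.32 ± 0.21, adjusted p = 0.592), Slc11a2 (0.26 ± 0.17, adjusted p = 0.605), Aco1 (0.41 ± 0.34, adjusted p = 0.688) and Ireb2 (0.20 ± 0.18, adjusted p = 0.722) had differences in translational efficiency above 0, and Tfrc had −0.09 ± 0.27 (adjusted p = 0.937). The 95% interval of Slc40a1 reached from −0.13 to 0.77, so these arrays do not show that the genes behaved alike in both kinds of cells. The median of the 7 was 0.32, beside 0.017 over all genes.

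Tfrc differed by −0.34 ± 0.19 on polysomes (adjusted p = 0.264) and −0.24 ± 0.19 in subpolysomes (adjusted p = 0.406) as a mean of its probes. Its brightest probe, with 10 spots, read 8.22, 8.17, 8.27 and 8.82 in scramble and 7.66, 7.65, 7.67 and 8.11 in eIF6 shRNA polysomes, and these groups did not overlap. By this probe Tfrc fell on polysomes by 0.60 (SE 0.14, adjusted p = 0.00735) and in subpolysomes by 0.45 (SE 0.14, adjusted p = 0.0365), where 10.3% and 11.9% of single probes were called lower. The probe at base 1228 gave −0.27 ± 0.17 and −0.18 ± 0.17, neither of them called.

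**Figure D5:**
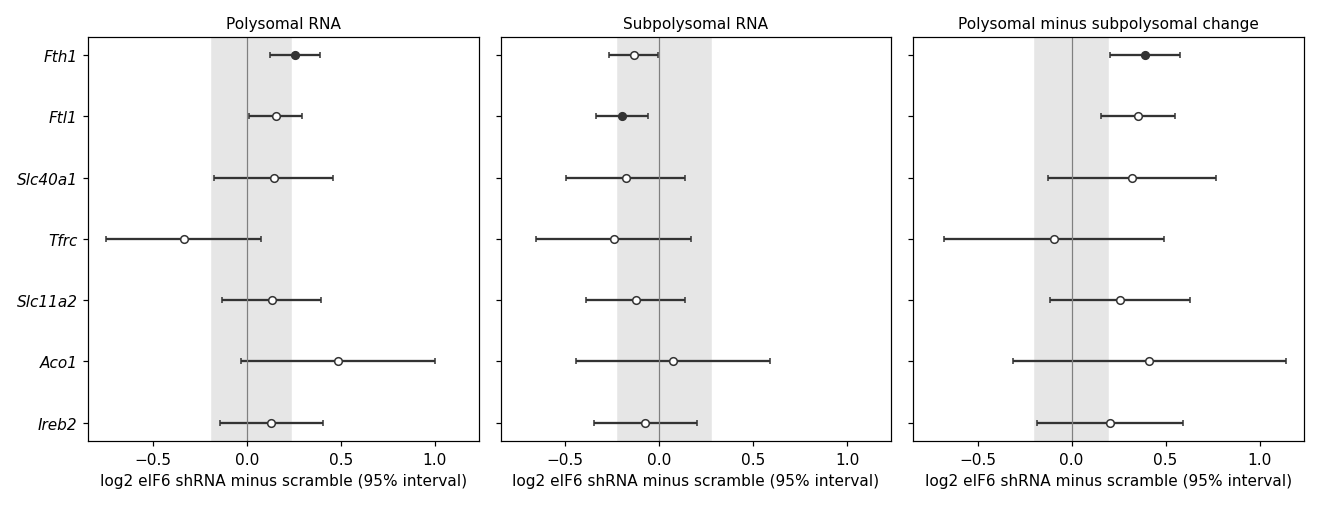
Log2 difference between eIF6 shRNA and scramble cells for each gene in polysomal RNA, in subpolysomal RNA and for the polysomal minus the subpolysomal change, with 95% intervals; filled points passed the adjusted p threshold of 0.05 and grey bands span the middle 50% of all genes. Fth1 is filled for polysomal RNA and for the difference of changes, and Ftl1 for subpolysomal RNA.

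Of 58 other genes of iron handling, 56 were on the array and 48 were tested. On polysomes 6 rose and 2 fell with the eIF6 shRNA (12.5% and 4.17%, beside 11.1% and 10.7% of all genes). In subpolysomes 8 rose and 3 fell (16.7% and 6.25%, beside 11.8% and 12.3%). Translational efficiency fell for 1 and rose for none (2.08% and 0%, beside 1.11% and 0.403% of all genes). Hfe, which binds the transferrin receptor, rose by 1.23 ± 0.16 and 1.18 ± 0.16 in polysomes and subpolysomes (adjusted p = 3.21e-05 and 5.91e-05). Cp, the ferroxidase ceruloplasmin that works beside ferroportin, rose by 1.23 ± 0.17 and 1.05 ± 0.17 (adjusted p = 6.25e-05 and 0.000327). Its membrane-bound relative Heph fell in both, with −2.79 ± 0.27 and −1.24 ± 0.27 (adjusted p = 1.81e-06 and 0.00327). Neither Cp nor Heph was well above background on every array by all probes in use, and Heph was dim. Its mean log2 signal was 5.12 on polysomes and 4.32 in subpolysomes of scramble cells, and 2.33 and 3.08 in eIF6 shRNA cells. Blvrb, a biliverdin reductase of haem breakdown, was the gene whose translational efficiency fell, by 0.83 (SE 0.14, adjusted p = 0.00797).

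In scramble cells 24 of these 48 genes were higher and 13 lower on polysomes, with a median of 0.315 (50% and 27.1%, beside 31.7% and 28.4% of all genes), and in eIF6 shRNA cells 22 and 12 (45.8% and 25%, beside 32.1% and 28.7%). Of the 7 lists within them, that of haem synthesis and breakdown, picked out after its values were seen, had 9 of 12 genes higher on polysomes in each kind of cells (75%). Among the other genes with iron-responsive elements, Epas1 (−0.75 ± 0.09, adjusted p = 5.53e-06) was lower on polysomes in scramble cells. Cdc42bpa was well above background on every array by all probes in use, and Cdc14a, at 4.74 in scramble subpolysomes, was not. Cdc14a (0.96 ± 0.11, adjusted p = 2.79e-06) and Cdc42bpa (0.71 ± 0.08, adjusted p = 3.58e-06) were higher. The gap was thus not common to all mRNAs of that list.

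For each of the genes well above background on every array, the 3 most similar profiles over the 16 arrays were noted as a description. All profiles share the split by fraction, and Pearson's r was computed over 13333 genes. Fth1 was nearest to Fos (0.973), Ninj1 (0.970) and Gramd1b (0.967), and Ftl1 to the array entry NAP061729-1 (0.989), Pde4c (0.989) and Pirb (0.987). Slc40a1 was nearest to Hivep1 (0.985), Pabpc1 (0.983) and Tiparp (0.982), and Slc11a2 to Mapk8ip3 (0.971), Gas2l1 (0.966) and Gm14322 (0.961). Snx18 (0.902) and Sipa1l3 (0.898) were among the 3 profiles most like Aco1, and Ireb2 was nearest to Snx1 (0.758), Mast3 (0.747) and Ccdc157 (0.746). Tfrc was left out because its dim probe was not above background on every array.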

How the data were processed

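The authors hybridised polysomal and subpolysomal RNA on 16 one-colour Agilent arrays and deposited a background-corrected intensity per spot, without normalization across arrays. A table of log2 values was deposited as well. The submitters' notes name Feature Extraction 10.7.7.1 and the methods a resolution of 3 micrometres, whereas the file headers give 10.7.3.1 and 5. Spots of a probe were averaged, probes were kept when clear of background on 2 or more arrays of any group (25259 of 39429), log2 intensities were quantile normalized, and kept probes were averaged by gene name. limma 3.58.1 in R 4.3.3 (with data.table, version 1.17.8) fitted 4 group means over 19364 genes for 5 contrasts, with Benjamini-Hochberg adjustment at 0.05. The number of arrays limits the precision. The procedure was tested on simulated data. The alternatives were other scalings, background correction, filters, probe rules, the authors' table, slide or replicate blocks and each replicate left out. Removal of the trend over GC content, cyclic loess and median scaling were chosen after seeing the data. Figures used matplotlib 3.10.9 in Python 3.11.15.

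The members were chosen by gene name and not by measured values. Earlier results of these data were known when the members and lists were chosen. The text names all 7 members, Eif6, the list genes called in translational efficiency or called with a log2 change of at least 1 on polysomes or in subpolysomes, and the 3 genes most like each member. The other genes with iron-responsive elements and the markers were named besides, after their values were seen. Some genes that these rules pick are not reported here.

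The other lists held, as higher and lower on polysomes with the eIF6 shRNA, 3 and 0 of 8 tested genes of the transferrin cycle, 1 and 1 of 4 of export, 0 and 0 of 3 of storage, 0 and 0 of 6 of turnover of the regulatory proteins, 1 and 0 of 11 of iron-sulfur clusters, 0 and 1 of 12 of haem metabolism and 1 and 0 of 4 of other mRNAs with iron-responsive elements. Of marker lists, 2 of 8 for macrophages, 2 of 4 for endothelium and 1 of 4 for erythroid cells were above background on all arrays. No sequence of an iron-responsive element was analysed here.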

Additional observations from a re-analysis of the deposited data

Results flagged for a closer look

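Fth1 was not called in subpolysomes by limma (−0.13, adjusted p = 0.127), and this value turned to 0.12 and 0.15 under 75th percentile and median scaling. The change of Fth1 on polysomes differed from its change in subpolysomes by 0.39 on the log2 scale, by the limma contrast of both fractions (adjusted p = 0.0364). Blvrb differed the other way, by −0.83 (adjusted p = 0.00797), with a fall of 0.52 on polysomes (adjusted p = 0.00154) and a rise of 0.31 in subpolysomes (adjusted p = 0.0386). Eif6 differed by −1.07 (adjusted p = 0.000145), and its subpolysomal signal differed by 0.015 (adjusted p = 0.917). No array of the 28 groups of 4 values of the 7 genes stood far enough from the others to be noted, where chance marks about 1 group in 20.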

How the results depend on the processing

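Of the fits of single genes under other settings, 747 kept direction and call, 41 lost the call, 6 gained one and 30 turned sign. Scaled to the 75th percentile, or to the median (chosen after seeing the data), no member was called higher on polysomes, lower in subpolysomes or higher in translational efficiency (0 against 1 each), nor higher on polysomes over subpolysomes in eIF6 shRNA cells (0 against 1). Subpolysomal Fth1 turned to 0.12 and 0.15, Ftl1 to 0.062 and 0.092, Aco1 over subpolysomes in scramble cells to −0.21 and −0.094, and Ireb2 in eIF6 shRNA cells to −0.15 and −0.053. With each fraction normalised on its own, polysomal over subpolysomal Tfrc, Slc40a1, Slc11a2 and Ireb2 were 0.80, 0.36, 0.75 and 1.27 in scramble cells and Tfrc, Slc40a1 and Slc11a2 0.69, 0.68 and 1.01 in eIF6 shRNA cells, with 2 and 1 members lower and 5 and 5 higher. That scaling called 15785 genes higher and 899 lower in scramble cells (main 6133 and 5498), and 15406 and 840 (main 6225 and 5553) in eIF6 shRNA cells. The 75th percentile called 4997 higher and 7309 lower in scramble cells. By the brightest probe, Tfrc was called lower on polysomes (1 against 0, beside 11.1% of all genes). Slc11a2 in eIF6 shRNA cells was 0.033, and 3 members were lower there (29.3% of all genes). Normexp gave Ireb2 0.02 in subpolysomes and 0.035 over subpolysomes in scramble cells, and called Ftl1 (0.34, adjusted p = 0.0128) and not Fth1 (0.26, adjusted p = 0.0537) in translational efficiency. Ireb2 in scramble cells, at −0.0033, was 0.0019 with no filter and 0.0022 in the authors' table. Eif6 in subpolysomes was −0.030 under cyclic loess.

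The replicate numbers did not pair the fractions of an shRNA (same number and shRNA, correlation of deviations −0.189 to 0.236). Across shRNAs, arrays of the same number on different slides spanned −0.441 to 0.706 (median 0.002). Arrays of the same slide and different number had medians of 0.214 within and 0.222 across shRNAs, and the main fit had no block for slide. With the replicate block, subpolysomal and translational efficiency calls among members were 0 against 1, with Fth1 at 0.39 (adjusted p = 0.0659), and with the culture replicate block 0 as well (adjusted p = 0.211). Removal of the GC trend, chosen after seeing the data, gave 0 (Fth1 0.32). Leaving out each replicate gave 0 to 1 members lower in subpolysomes (9.56% to 13.6% of all genes) and 0 to 1 higher in translational efficiency. It gave 0 to 1 higher on polysomes over subpolysomes in eIF6 shRNA cells (28.3% to 33.7% of all genes). The call of Tfrc over subpolysomes in scramble cells was lost without any one scramble replicate (−0.54 to −0.45). Values near 0 turned sign when replicates were left out: in subpolysomes Eif6 ran from −0.028 to 0.058, Aco1 from −0.049 to 0.23 and Ireb2 from −0.13 to 0.038, and Ireb2 over subpolysomes in scramble cells from −0.12 to 0.13. Counts of all genes called in translational efficiency, 214 lower and 78 higher, were 427 lower and 59 higher under the 75th percentile, 508 lower under the median, 340 and 130 with each fraction on its own, 390 and 177 under normexp, 393 lower under cyclic loess, 142 lower with no filter and 102 and 27 with the culture block. Over the leave-outs 0.553% to 1.02% of genes were called lower and 0.181% to 0.578% higher. The causes were not tested. Dim probes, such as that of Tfrc at base 1732, limit what small differences can be seen.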
